A study of Mus musculus with 4 samples.

Results

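The data cover 5 genes and 2 antibody tags that belong to the handling of extracellular nucleotides, out of 32285 genes and 197 named tags counted in the same cells. The genes were Cd38, Entpd1, Nt5e, P2rx7 and Adora2a, and the tags were those against CD38 and against CD39, the protein that Entpd1 encodes. They were chosen by name, and all 5 genes passed the filter on low counts in every comparison below. T cells were taken in 3 classes called by RNA counts: Cd4 cells, Cd8 cells, and Foxp3 cells, which carry the transcript of the regulatory T cell factor Foxp3.

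CD38 is a surface enzyme that consumes NAD, and activated T cells carry it. CD39 removes phosphates from extracellular ATP and ADP to give AMP, and CD73, the product of Nt5e, turns AMP into adenosine. P2X7, the product of P2rx7, is an ion channel opened by extracellular ATP, and Adora2a encodes an adenosine receptor that dampens T cell activity. CD39 and CD73 are known for their presence on mouse regulatory T cells, and CD39 and CD38 for their presence on T cells in tumors.

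The T cells were sorted for CD3 from subcutaneous tumors of Tsc2-deficient 105K cells, a mouse kidney tumor line, grown in wild-type C57BL/6J mice. The control group (sh_NC) carried a non-targeting hairpin and the knockdown group (sh_B7-H3 (1)) a hairpin against B7-H3, an immune checkpoint protein of the tumor cells. Each group was 80 pooled tumors captured as 2 droplet libraries, in which RNA and antibody-derived tags of the same cells were counted as unique molecular identifiers (UMIs; CITE-seq). All tumors lacked Tsc2, the hairpins acted in tumor cells that the sort removes, and 1 line with 1 hairpin was used, so these libraries hold no check of the knockdown. The deposited protocol and the study's methods describe 1 pool per group, while another passage of the study calls the 2 libraries independent samples, so whether they share mice is uncertain. If they do, p-values measure the spread between libraries and not between mice. Any handling that differed between the pools cannot be told apart from the knockdown.

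Cd38 and Entpd1 rose together with the knockdown, so the 250 bases upstream of their RefSeq gene starts were searched for motifs of T cell activation (GRCm38.p6, plus strand). Entpd1 has 2 such starts, and the window of the downstream one, in an intron of the longer transcripts, is shown, since it overlaps no annotated exon. Capitals mark the NFAT core GGAAA. The Cd38 window, chr5:43868559-43868808, lies inside the gene in the GENCODE annotation, which starts it at 43868553, so it is upstream of the RefSeq start alone. That window and the upstream Entpd1 window, chr19:40612116-40612365, overlap exons in GENCODE, and their sequences are not shown.
Entpd1 downstream start, chr19:40659520-40659769: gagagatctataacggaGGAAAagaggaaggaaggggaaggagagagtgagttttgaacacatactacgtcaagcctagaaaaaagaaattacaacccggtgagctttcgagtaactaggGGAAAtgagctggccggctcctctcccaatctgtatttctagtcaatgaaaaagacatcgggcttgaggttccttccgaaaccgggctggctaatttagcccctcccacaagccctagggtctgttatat
Both strands were searched for GGAAA and for the AP-1 motif TGANTCA, the site of another activation factor of T cells. The Cd38 window held 1 GGAAA, the upstream Entpd1 window none and the downstream one 2, and no window held TGANTCA. Of 32851 windows of this length over all genes, 55.6% held GGAAA and 6.75% held TGANTCA.

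The 4 libraries held 7030 to 12112 called cells and 79224898 to 132820909 RNA UMIs, with 51831185 to 95774544 tag UMIs. After limits on genes, mitochondrial UMIs and doublets, 2919 to 6534 cells per library were kept, of which 911 to 1986 were Cd4 cells, 1131 to 2726 Cd8 cells and 246 to 374 Foxp3 cells. Il2ra encodes a cytokine receptor chain of regulatory T cells. It had a UMI in 61.5 and 64.6% of control and 51.2 and 56.3% of knockdown Foxp3 cells, against at most 4.07% of Cd4 cells. The share of Foxp3 cells with an Il2ra UMI was thus lower in the knockdown libraries. Their median depths were 6726 and 7029 RNA UMIs in control against 6258.5 and 6121 in knockdown libraries. The summed regulatory markers given below, which include Il2ra, were instead higher in knockdown Foxp3 cells. Whether the makeup of this class differed, and the part of that in its differences, was not tested. Any pair of libraries shared at most 0.427% of cell barcodes. More called cells exceeded the mitochondrial limit of 5% in the knockdown libraries (2643 and 3330) than in the control libraries (2535 and 2251), although the control libraries held more cells. Cells with at least 2 UMIs of myeloid or B cell markers were more frequent in both knockdown libraries of each class, at 1.66 and 1.34% of control against 4.83 and 2.4% of knockdown Cd4 cells, 4.59 and 4.18% against 5.31 and 5.46% of Cd8 cells, and 6.68 and 4.8% against 7.72 and 7.69% of Foxp3 cells. Levels are in counts-per-million units (CPM), with all RNA or all tag UMIs of a class in a library as the total. In Cd4 cells the TIGIT tag was at 20400 CPM in knockdown library 1 and at 50.7 to 151 CPM in the other libraries, so library 1 stands apart in that tag, and without it the Cd4 differences of the CD38 and CD39 tags given below were 1.53 and 1.41 on the log2 scale.

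Cd38 RNA rose in all 3 classes with the knockdown. In Cd4 cells it was at 10.3 and 12.3 CPM under the control hairpin, against at 76.9 and 72.4 CPM under the knockdown. The log2 difference was 2.62 with a standard error of 0.0876 (adjusted p = 4.54e-13, edgeR quasi-likelihood test). In Cd8 cells it was at 8.6 and 10.6 CPM in the control libraries against 56.4 and 48.9 CPM, a log2 difference of 2.36 (adjusted p = 4.86e-16). In Foxp3 cells the control libraries were already higher, at 17.7 and 19.5 CPM, and the knockdown libraries were at 36.8 and 40.2 CPM, a log2 difference of 1.03 (adjusted p = 0.000172). With cells up to 2.5% mitochondrial UMIs alone, a choice added after the data were seen, the log2 differences were 0.92 in Cd4 cells (adjusted p = 0.000109), 0.81 in Cd8 cells (adjusted p = 9.58e-05) and 0.44 in Foxp3 cells (adjusted p = 0.705).

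Entpd1 RNA also rose in all 3 classes, with its lowest difference in Foxp3 cells. Its Cd4 values were 11.1 and 13.7 CPM under the control hairpin, against 68.1 and 69.9 CPM under the knockdown, a log2 difference of 2.39 (95% interval 2.20 to 2.58, adjusted p = 2.44e-12). In Cd8 cells 9.04 and 9.91 CPM stood against 58.5 and 49.9 CPM, a log2 difference of 2.41 (adjusted p = 1.51e-16). In Foxp3 cells the values were 33.2 and 40.9 CPM against 52.0 and 58.6 CPM, with a log2 difference of 0.57 (adjusted p = 0.0192). The libraries of the groups did not overlap for Cd38 or Entpd1 in any class. With 2 libraries against 2 such a separation is not rare, and its share over all genes was not counted, so it adds nothing to the tests. The Foxp3 call of Entpd1 was lost under DESeq2 (adjusted p = 0.257) and without the filter on low counts (adjusted p = 0.13), and that of Cd38 was lost when Foxp3 cells needed 2 UMIs of Foxp3 (log2 difference 0.58, adjusted p = 0.327). The Entpd1 call was also lost without control library 1 (0.43, adjusted p = 0.287) and without knockdown library 2 (0.47, adjusted p = 0.227). With cells up to 2.5% mitochondrial UMIs the Entpd1 differences were 0.63 in Cd4 cells (adjusted p = 0.00282), 0.89 in Cd8 cells (adjusted p = 1.31e-05) and 0.35 in Foxp3 cells (adjusted p = 0.666).

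Markers of regulatory T cells moved with Cd38 and Entpd1 in the other classes. The summed level of Foxp3, Il2ra, Ikzf2 and Ctla4 was 58.4 and 68.6 CPM in control and 227 and 226 CPM in knockdown Cd4 cells, and 21.0 and 29.1 against 107 and 106 CPM in Cd8 cells. Ikzf2, a transcription factor also made by activated T cells, was most of it, at 37.8 and 45.6 against 185 and 180 CPM in Cd4 cells. Ctla4, an inhibitory receptor, was at 13.3 and 14.2 against 31.9 and 33.5 CPM there, and Il2ra at 7.34 and 8.83 against 9.91 and 12.3 CPM, while Foxp3 was at 0 in Cd4 and Cd8 cells by the definition of the classes. In Foxp3 cells the sum was 1700 and 1800 against 2030 and 2030 CPM. The part of these markers in the differences was not tested.

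The adenosine receptor gene Adora2a rose in Cd4 and Cd8 cells. It was at 7.27 and 8.30 CPM in control and 16.9 and 17.4 CPM in knockdown Cd4 cells, a log2 difference of 1.04 (adjusted p = 8.66e-06). In Cd8 cells it was at 4.38 and 5.97 CPM against 14.2 and 11.4 CPM, a log2 difference of 1.20 (adjusted p = 8.18e-07). Under the limit of 2.5% mitochondrial UMIs the Cd4 call was lost (0.74, adjusted p = 0.106) and the Cd8 call was kept (0.89, adjusted p = 0.0268). In Foxp3 cells the groups overlapped, at 18.9 and 19.9 CPM against 19.7 and 28.0 CPM, and the interval of the log2 difference ran from -0.20 to 0.77 (adjusted p = 0.577).

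P2rx7, the ATP-gated channel, fell in Cd4 cells, from 3.86 and 4.30 CPM to 2.01 and 1.79 CPM, a log2 difference of -1.21 (adjusted p = 0.00204). This rested on 61 and 57 UMIs under the control hairpin, against 13 and 15 under the knockdown, and DESeq2 gave an adjusted p of 0.0503. In Cd8 cells, with 6 to 28 UMIs per library, the interval of the log2 difference ran from -1.0 to 0.74, and in Foxp3 cells from -0.92 to 0.38.

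Nt5e, the gene of CD73, did not follow Cd38 and Entpd1. In Cd4 cells it was at 8.98 and 10.1 CPM in control and 8.98 and 9.18 CPM in knockdown libraries, and the interval of the log2 difference was -0.49 to 0.15 (adjusted p = 0.405). In Cd8 cells it fell from 9.0 and 9.91 CPM to 6.24 and 8.52 CPM (log2 difference -0.41, adjusted p = 0.0266), and in Foxp3 cells it rose from 64.5 and 58.8 CPM to 82.5 and 79.0 CPM (log2 difference 0.37, adjusted p = 0.0488). Neither of these calls held under DESeq2 (adjusted p = 0.203 and 0.409). The Cd8 call was lost without control library 2 (-0.36) or knockdown library 1 (-0.23), and the Foxp3 call without any 1 of the 4 libraries (0.30 to 0.45). Both were also lost with cells up to 2.5% mitochondrial UMIs (-0.53, adjusted p = 0.545, and 0.32, adjusted p = 0.638).

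In all, 4 of the 5 genes were called in Cd4 cells, where 43.3% of 11415 genes tested were called in either direction. In Cd8 cells 4 of 5 were called beside 44.4% of 11659 genes, and in Foxp3 cells 3 of 5 beside 8.73% of 8977 genes. The log2 difference of Cd38 lay at percentile 98.5 of all genes in Cd4 cells, at 98.1 in Cd8 cells and at 98.4 in Foxp3 cells.

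**Figure D1:**
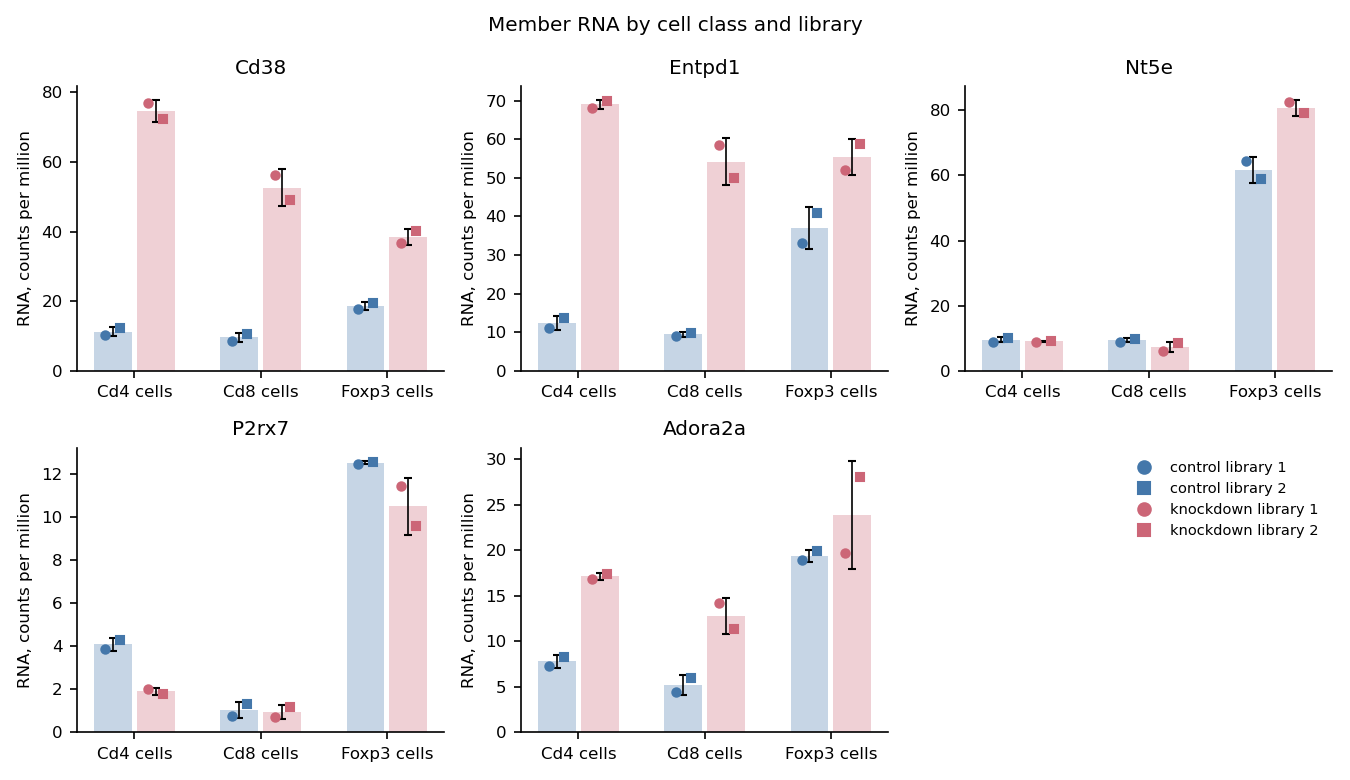
RNA of the 5 genes in CPM (vertical axes) by cell class (horizontal axes), with 1 point per library; colour gives the group, marker shape the library, and bars with error bars the group mean ± SD (n = 2). Cd38 and Entpd1 sit between 8.6 and 13.7 CPM in control Cd4 and Cd8 cells and between 48.9 and 76.9 CPM in knockdown ones, while Nt5e is high in Foxp3 cells of both groups.

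The protein tags rose with the RNA in Cd4 and Cd8 cells and were not called in Foxp3 cells. All 4 calls in Cd4 and Cd8 cells were lost with cells up to 2.5% mitochondrial UMIs alone, where the log2 differences were 0.17 for both tags in Cd4 cells and -0.02 and -0.04 in Cd8 cells. Tag CPM are shares of all tag UMIs of a class, and the test rescales them by trimmed means (TMM), which made the rises of the CD38 and CD39 tags smaller than the ratio of their CPM and the falls of the CD73 and CD26 tags given below larger. The CD38 tag was at 19780 and 22160 CPM in control Cd4 cells and at 76370 and 71410 CPM in knockdown Cd4 cells, a log2 difference of 1.56 (adjusted p = 0.00142). In Cd8 cells 17450 and 22190 CPM stood against 69030 and 63580 CPM (log2 difference 1.33, adjusted p = 0.00558). In Foxp3 cells the CPM were higher in the knockdown libraries (32010 and 34730 against 23550 and 23570), but the log2 difference after rescaling was 0.17, with an interval of -0.04 to 0.38 (adjusted p = 0.155).

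The CD39 tag was at 15160 and 16800 CPM in control and 53220 and 49940 CPM in knockdown Cd4 cells, a log2 difference of 1.44 (adjusted p = 0.00142). In Cd8 cells it went from 11840 and 14420 CPM to 40830 and 37370 CPM (log2 difference 1.16, adjusted p = 0.00558). In Foxp3 cells it was at 24870 and 25210 CPM against 32950 and 30180 CPM, with an interval of the log2 difference of -0.22 to 0.22. Both tags were called in Cd4 cells beside 55.8% of 197 tags, both in Cd8 cells beside 64%, and neither in Foxp3 cells beside 40.1%. Scaled to the isotype controls, antibodies that bind no mouse antigen, the differences in Cd4 cells were 1.46 for CD38 and 1.33 for CD39. Under that scaling 30% of the called tags in Cd4 cells were higher in the knockdown libraries, in place of 50.9%, and in Foxp3 cells 18.8% in place of 49.4%, where the median of all tags was -0.16. The Foxp3 differences of both member tags were then below 0, at -0.01 for CD38 and -0.18 for CD39, and were again not called.

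**Figure D2:**
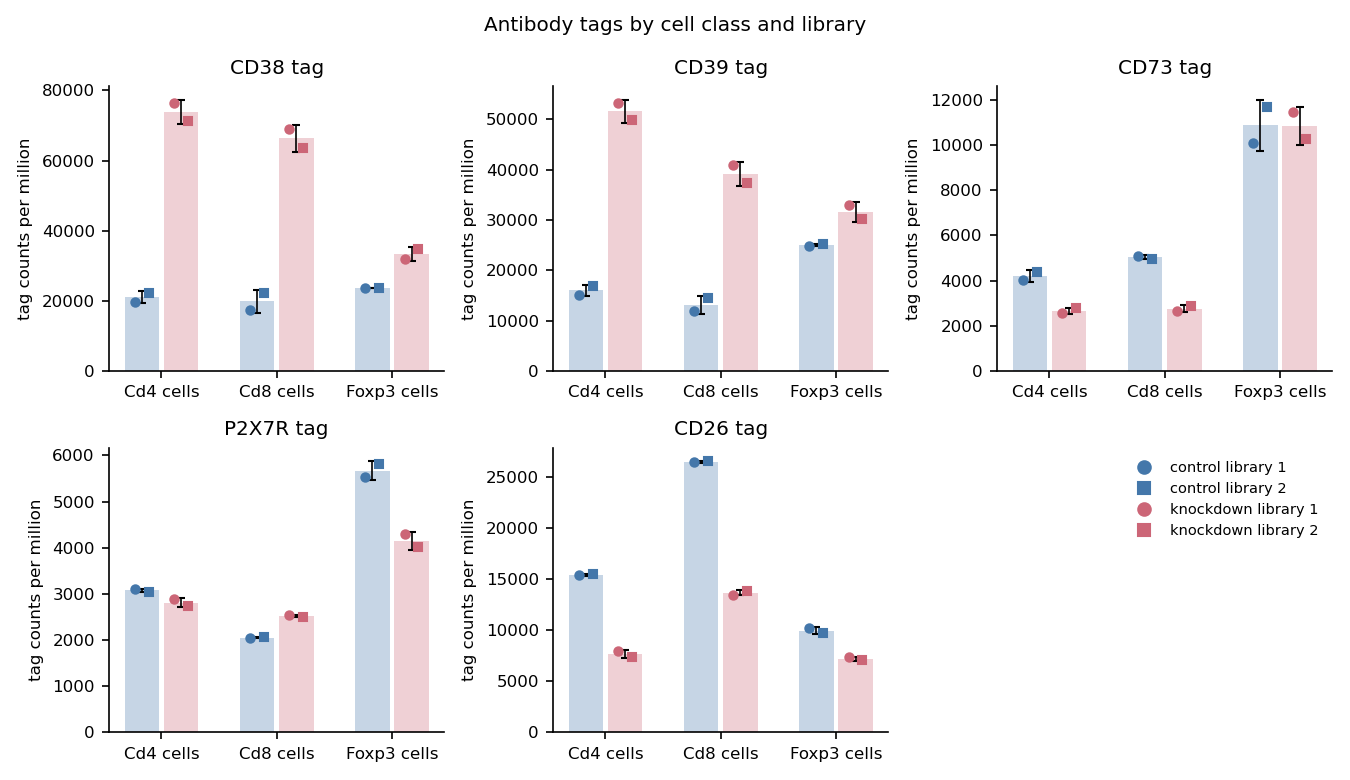
Antibody tags in CPM of all tag UMIs (vertical axes) by cell class, with 1 point per library, coloured by group and shaped by library, and bars with error bars for the group mean ± SD (n = 2). The CD38 and CD39 tags of knockdown Cd4 and Cd8 cells stand well above those of control cells, from 37370 CPM up against at most 22190 CPM.

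Levels across classes separated the members. Over the 4 libraries, Nt5e was higher in Foxp3 than in Cd4 cells by 2.71 on the log2 scale (adjusted p = 4.54e-08), P2rx7 by 1.70 (adjusted p = 0.000245) and Adora2a by 0.72 (adjusted p = 0.0104), 3 of 5 genes called beside 30.1% of all genes. The Adora2a call was lost without control library 1 (0.58, adjusted p = 0.0592) or control library 2 (0.62, adjusted p = 0.079), and Cd38 was called lower in Foxp3 cells without control library 1 (-0.72, adjusted p = 0.035). Cd38 and Entpd1 differed by -0.47 and 0.36 between these classes, with intervals of -0.98 to 0.03 and -0.28 to 1.0, and neither tag was called beside 28.4% of tags. For both genes these averages cover opposite directions, since the CPM given above were higher in Foxp3 than in Cd4 cells of the control libraries and lower in those of the knockdown libraries. Between Cd8 and Cd4 cells 1 of 5 genes was called beside 21% of all genes: P2rx7 was lower in Cd8 cells by 1.52 on the log2 scale (log2 difference -1.52, adjusted p = 0.00118). Without knockdown library 1, Adora2a was also called lower in Cd8 cells (-0.46, adjusted p = 0.0292; -0.37, adjusted p = 0.104 with all 4 libraries). Neither tag was called there, beside 14.2% of tags.

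The difference that went with the knockdown was itself smaller in Foxp3 than in Cd4 cells for Cd38, Entpd1 and both tags. The interaction was -1.57 for Cd38 (adjusted p = 4.08e-06), -1.80 for Entpd1 (adjusted p = 2.27e-08), -1.46 for the CD38 tag (adjusted p = 0.000888) and -1.50 for the CD39 tag (adjusted p = 6.70e-05). With cells up to 2.5% mitochondrial UMIs alone, the interaction was -0.50 for Cd38 (adjusted p = 0.661), -0.30 for Entpd1 (adjusted p = 0.767) and -0.38 for the CD38 tag (adjusted p = 0.172), and of the 4 calls that of the CD39 tag stayed (-0.54, adjusted p = 0.027). With all kept cells these were 2 of 5 genes beside 7.67% of all genes, and 2 of 2 tags beside 20.3% of tags. Between Cd8 and Cd4 cells no member was called by edgeR, beside 3.76% of genes and 5.58% of tags, although Cd38 had an unadjusted p of 0.0438 and the CD39 tag one of 0.00392. DESeq2 called the CD39 tag in that comparison (log2 difference -0.28, adjusted p = 0.000778).

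Joint labelling was read from the tag counts of each cell. With the threshold at the 99th percentile of single isotype counts, 6 to 9 counts, 53.6 and 53.8% of control Cd4 cells and 89.8 and 88.0% of knockdown Cd4 cells were positive for both tags. In Cd8 cells the shares were 71.4 and 71.3% against 95.1 and 93.8%, and in Foxp3 cells 90.6 and 89.5% against 96.3 and 95.5%. This threshold hardly separated cells for CD39, since 96.7 to 100% of cells lay above it in every class. Droplets without a cell held on average 7.47 and 6.86 CD39 tag counts under the control hairpin, against 3.70 and 1.27 under the knockdown.

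A threshold set between the low and the high mode of each tag in each library (Otsu's method, 44.7 to 94.7 counts for CD38 and 63.9 to 92.0 for CD39) gave lower shares. Double-positive cells were then 11 and 12.5% of control Cd4 cells (exact 95% intervals 9.68 to 12.5 and 10.9 to 14.3) and 51.2 and 50.3% of knockdown Cd4 cells (47.9 to 54.4 and 47.3 to 53.2). In Cd8 cells they were 14.4 and 18.1% against 64.1 and 60.5%. In Foxp3 cells they were 44.7 and 46.2% against 44.3 and 46.6%, so the groups overlapped. With 2 libraries against 2, the exact two-sided permutation p of the Cd4 and Cd8 shares was 0.333, the smallest this design allows. These intervals cover counting error alone. With 1 threshold for all libraries the Foxp3 difference was 11.1 percentage points in place of -0.0155, so the share in Foxp3 cells depended on the threshold.

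The 2 proteins were found on the same cells. Of the CD39-positive Cd4 cells, 95.6 to 98.3% were also CD38-positive in every library, while of the CD38-positive ones 66.6 and 73.8% were CD39-positive under the control hairpin, against 94.7 and 95.1% under the knockdown. Cells with CD38 alone were 5.54 and 4.45% of control Cd4 cells and 2.85 and 2.57% of knockdown ones. That direction turned with 1 threshold for all libraries (56.2 counts for CD38), which gave 3.68 and 2.99% against 3.95 and 4.54%. The thresholds per library were higher for CD38 in the knockdown (94.7 and 69.3 counts) than in the control libraries (45.2 and 44.7). In Foxp3 cells CD39 alone was found on 2.14 and 3.00% in the control against 11.8 and 10.1% in the knockdown libraries, but with 1 threshold on 4.01 and 5.71% against 5.28 and 6.88%, where the groups overlapped. Spearman's rho between the 2 tag counts over cells was 0.638 and 0.637 in control Cd4 cells (1986 and 1573 cells) and 0.925 and 0.913 in knockdown ones (911 and 1168 cells). Among 196 other tags, CD39 had the highest rho with CD38 in Cd4, Cd8 and Foxp3 cells of all 4 libraries. The CD54 tag came next in knockdown Cd4 cells, at 0.865 and 0.859. Seen from CD39, CD54 and not CD38 had the highest rho in Foxp3 cells of both control libraries (0.774 and 0.803) and knockdown library 1 (0.752). Cells of 1 library share its depth and free tags. The rho of CD38 with CD39 remained its highest in Cd4 and Cd8 cells when each tag was taken as a share of the cell's tag UMIs.

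**Figure D3:**
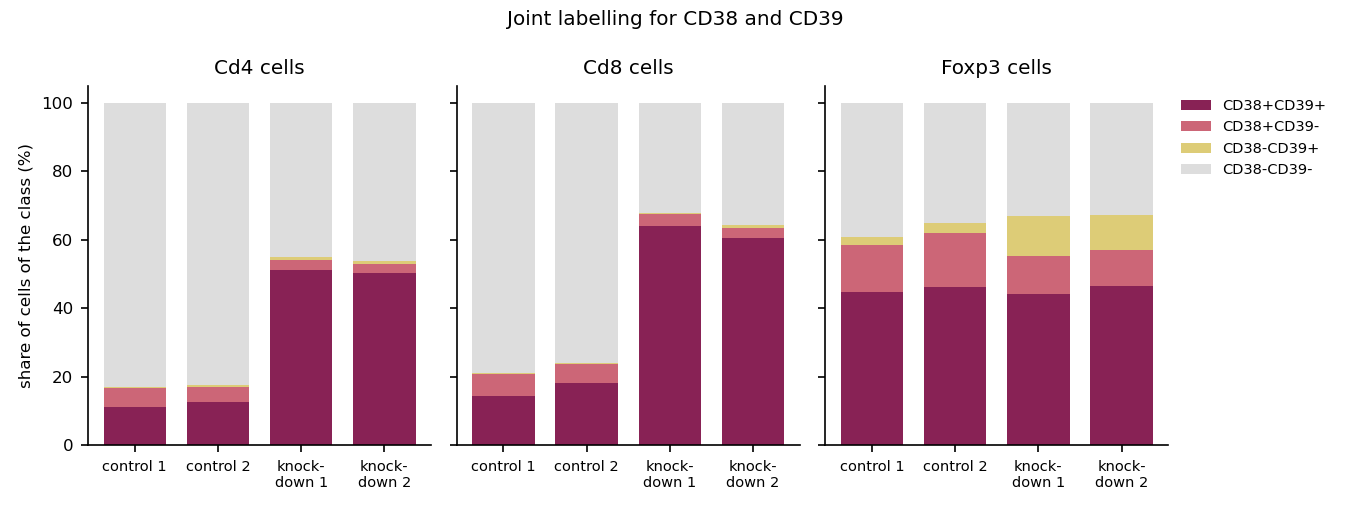
Share of cells (vertical axes, %) that were positive for both tags, for CD38 alone, for CD39 alone or for neither, by library (horizontal axes) in each class, with the threshold of Otsu's method in each library. Double-positive cells take 51.2 and 50.3% of knockdown Cd4 cells against 11 and 12.5% of control ones, and 44.3 to 46.6% of Foxp3 cells in all 4 libraries.

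Among all kept cells, double-positive cells were 13.8 and 16.2% under the control hairpin, against 48.6 and 48.1% under the knockdown. Cd8 cells made up 43.7 to 51.1% of them and Cd4 cells 23.2 to 32.8%. Foxp3 cells made up 18.6 and 18.1% of the double-positive cells under the control hairpin, against 7.68 and 6.19% under the knockdown. Cells with myeloid or B cell UMIs were 7.22 and 6.71% of double-positive cells in the control libraries, above the 3.0 and 2.81% of the other kept cells. In the knockdown libraries they were 6.62 and 5.54% of double-positive cells, below the 9.34 and 6.88% of the others. Kept cells include those that fell in no class. In these the summed myeloid markers were at 333 and 356 CPM in control and 2050 and 1170 CPM in knockdown libraries. The part of these cells in the turned direction was not tested.

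Nearly all Cd38 and Entpd1 RNA of Cd4 cells lay in double-positive cells. They held 92.6% of the Cd38 UMIs of control Cd4 cells and 97.6% of those of knockdown Cd4 cells, and 91.6 and 97.7% of the Entpd1 UMIs. Cd38 was at 96.4 and 107 CPM in control double-positive Cd4 cells and at 150 and 142 CPM in knockdown ones, and at most 3.03 CPM in double-negative Cd4 cells of any library. Entpd1 was at 100 and 119 CPM against 131 and 138 CPM in double-positive cells, and at most 2.38 CPM in double-negative ones. The 6.63-fold higher Cd38 CPM of pooled knockdown Cd4 cells can be split by arithmetic. The shares used are those of the RNA UMIs of the class, not of its cells. With the control level of each tag combination and the knockdown shares it would be 4.55-fold, and with the knockdown levels and control shares 1.6-fold.

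In Cd8 cells the measured Cd38 ratio was 5.46, with 4.03 from the shares alone and 1.6 from the levels alone. For Entpd1 in Cd4 cells these were 5.64, 4.51 and 1.32. In Foxp3 cells Cd38 was 2.07-fold higher, with 1.03 from the shares alone and 1.95 from the levels alone, and Entpd1 1.5-fold higher, with 1.16 and 1.29. The split uses the thresholds per library, where double-positive cells held 39.8% of the RNA UMIs of control and 43.3% of those of knockdown Foxp3 cells. Under these thresholds the Foxp3 shares of cells overlapped between the groups. With 1 threshold for all libraries 42.7% of control and 53.8% of knockdown Foxp3 cells were double-positive (means of 2 libraries), and the split was not computed there. These ratios describe the 2 pools and carry no test.

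The other members sorted differently over the tag combinations. Nt5e was highest in control Cd4 cells with CD38 alone, at 40.5 and 58.1 CPM (36 and 33 UMIs), against 6.77 and 7.16 CPM in double-negative cells and 9.64 and 13.3 CPM in double-positive cells. In knockdown double-positive Cd4 cells Nt5e was lower, at 3.99 and 4.10 CPM. In Foxp3 cells it was at 92.9 to 98.3 CPM in double-positive and 17.6 to 32.9 CPM in double-negative cells of the 4 libraries. P2rx7 was at 4.50 and 2.81 CPM in control double-positive Cd4 cells and at 0 and 0.723 CPM in knockdown ones, from 0 to 7 UMIs. Adora2a was at 18.0 to 28.2 CPM in double-positive and 6.24 to 7.81 CPM in double-negative Cd4 cells.

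**Figure D4:**
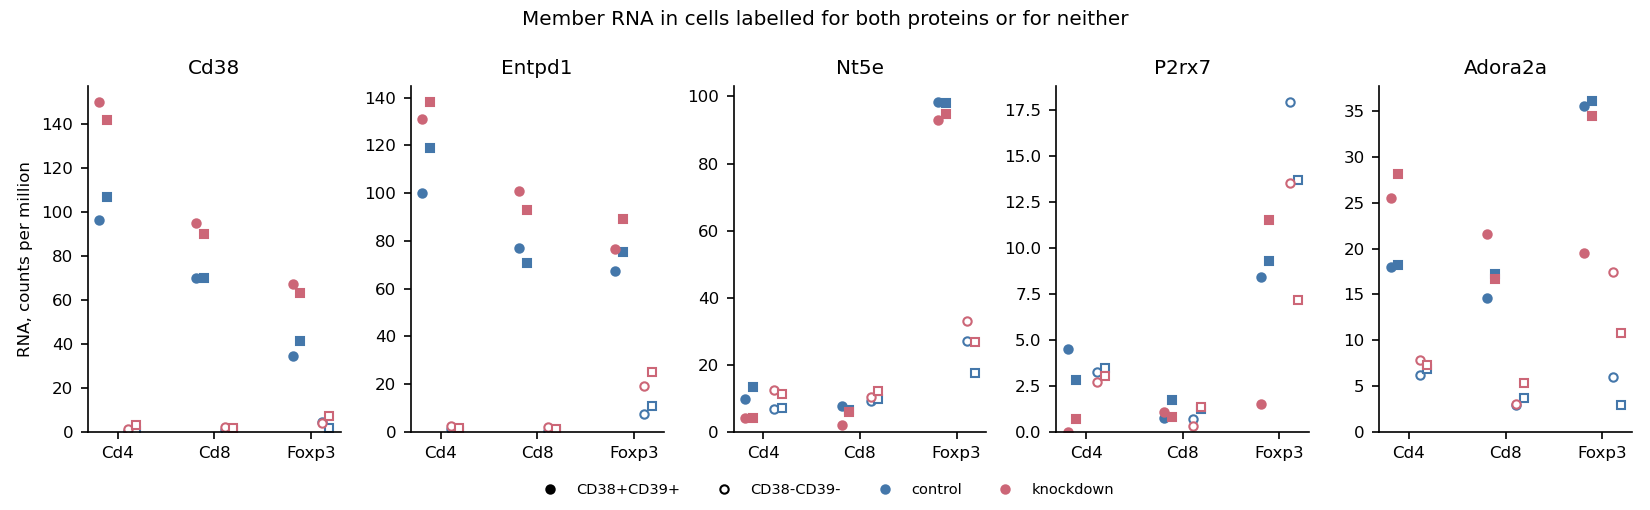
RNA of the members in CPM (vertical axes) by class (horizontal axes) in cells positive for both tags (filled points) and for neither (open points), with 1 point per library, coloured by group. Cd38 and Entpd1 are near 0 in double-negative Cd4 and Cd8 cells of both groups, and in double-positive Cd4 cells Cd38 is at 96.4 to 150 CPM.

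Double-positive Cd4 cells carried transcripts of effector T cells. The cells were graded by how many of Gzmk, Nkg7, Ifng, Pdcd1 and Lag3 had a UMI, genes of a granzyme, a cytotoxic granule protein, interferon gamma and 2 inhibitory receptors. Of Cd4 cells with none, 2.34 to 3.1% were double-positive in the 4 libraries, and of those with 3 or more, 94.8 to 97.9%. Within a grade the groups overlapped at 0, 1 and 2 genes in Cd4 cells. The number of cells per grade did differ: those with 3 or more effector genes were 7.8 and 9.73% of control Cd4 cells and 48.2 and 48.5% of knockdown ones. The study reports all of these genes as raised in CD4 T cells of the knockdown tumors, from the same data. This difference in number thus followed from the choice of genes and is no separate result.

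In Cd8 cells 95.5 to 98.0% were double-positive at 3 or more genes and 0 to 3.12% at none, but between these the groups did not overlap. Nkg7 had a UMI in 94.0 to 95.9% of double-negative Cd8 cells of the libraries, against 6.86 to 39.6% of double-negative Cd4 cells. A grade of 1 in Cd8 cells thus need not mark an effector cell, and the grades are not alike in the classes. At 1 gene, the grade of 81.3 and 78.2% of control Cd8 cells, 2.98 and 3.31% of control and 7.06 and 8.13% of knockdown cells were double-positive. At 2 genes 37.2 and 34.1% of control Cd8 cells and 69.2 and 54.4% of knockdown ones were double-positive. Foxp3 cells were already double-positive in 25.3 to 30.4% of cells with no effector gene, and at 1 gene in 62.2 and 70.0% of control against 45.7 and 45.7% of knockdown cells, by the thresholds per library. In double-positive Foxp3 cells Nkg7 was at 162 and 193 CPM in control against 814 and 834 CPM in knockdown libraries. Gzmk had a UMI in 1.8 and 0.649% of these cells in control against 14.7 and 8.7% in knockdown libraries. The CD25 tag, against the protein of Il2ra, passed the isotype threshold in 22.2 and 28.5% of control and 12.2 and 10.9% of knockdown Foxp3 cells. A UMI of Eomes, an effector and NK cell factor, was found in 5.94 and 6.48% of control and 33.9 and 31.7% of knockdown Cd4 cells. The NK cell marker Ncr1 had 0 UMIs in Cd4 and Cd8 cells of all libraries. Klrb1c, another NK cell marker, did have UMIs in Cd8 cells of all libraries and in Cd4 cells of all but knockdown library 1.

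**Figure D5:**
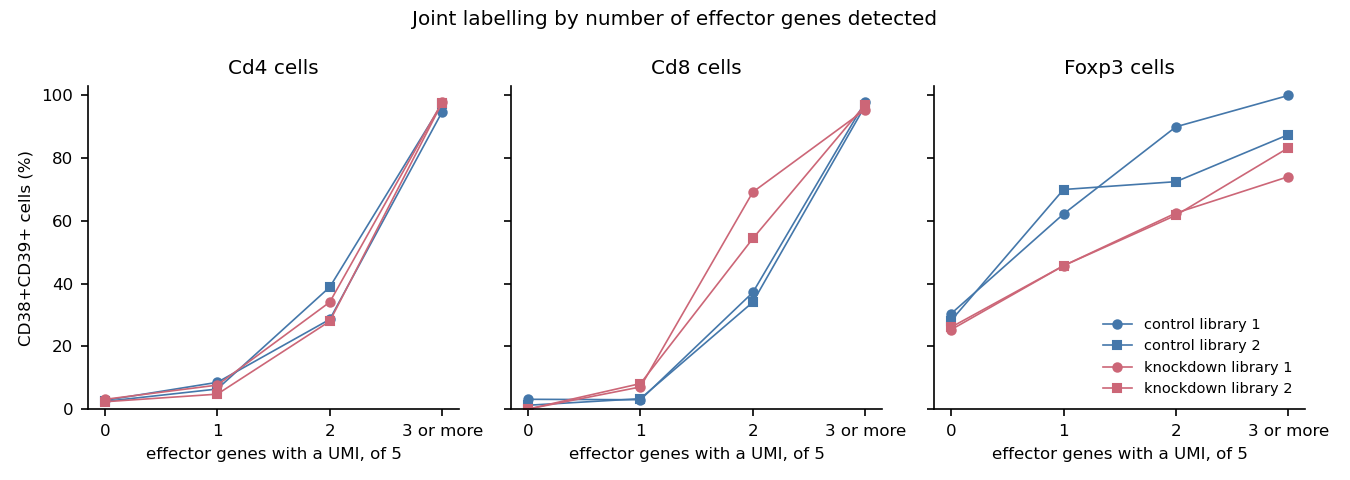
Share of cells positive for both tags (vertical axes, %) against the number of 5 effector genes with at least 1 UMI (horizontal axes), 1 line per library, coloured by group, in each class. In Cd4 cells the lines of the 4 libraries run together from 2.34 to 3.1% at 0 genes to 94.8 to 97.9% at 3 or more, and in Foxp3 cells they start at 25.3 to 30.4%.

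RNA and protein were compared cell by cell. At the isotype threshold, Cd4 cells with a Cd38 UMI were CD38-positive in 98.7% of cases, against 68.0% of cells without one (means over 4 libraries), a difference of 30.6 ± 17.9 percentage points (SD, n = 4). The Cd38 difference was 45.8 and 46.5 points in the control and 13.9 and 16.4 points in the knockdown libraries. For Entpd1 and CD39 the difference was 2.66 ± 0.979 points. With Otsu's threshold the differences were 73.5 ± 10.6 and 72.5 ± 10.0 points. Each was above 0 in 4 of 4 libraries, with an exact two-sided sign-flip permutation p of 0.125, the smallest 4 libraries allow.

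The reverse reading was weaker, and the cause of this was not tested. Of CD38-positive Cd4 cells by Otsu's threshold, 28.9 and 36.7% had a Cd38 UMI under the control hairpin, against 55.9 and 58.8% under the knockdown, and of CD38-negative cells 0.302 to 2.18%. Median CD38 tag counts were 816 and 756 in control Cd4 cells with a Cd38 UMI, against 8.0 and 7.0 in those without, and 665 and 465 against 39 and 26 in knockdown cells. In Foxp3 cells RNA and tag were less closely tied: 83.7 to 94.9% of cells with a Cd38 UMI and 48.5 to 57.5% of those without were CD38-positive. The other pairs with a tag in the panel were looser. In Cd4 cells the mean CD73 tag of cells with an Nt5e UMI was 3.18 to 6.09 times that of cells without, and the mean P2X7R tag of cells with a P2rx7 UMI 1.64 to 2.92 times.

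To set shares of cells with a UMI at equal depth, each cell was thinned to 2000 RNA UMIs, leaving out shallower ones, 4 and 1 of the control and 6 and 20 of the knockdown Cd4 cells. Cd38 was then found in 2.47 ± 0.283% of Cd4 cells under the control hairpin and in 12.4 ± 2.26% under the knockdown (SD, n = 2 libraries each), and Entpd1 in 2.62 ± 0.983% against 11.1 ± 0.707%. Cd4 cells with a UMI of Ccr7, a chemokine receptor of resting T cells, and none of the effector genes were taken as resting. This choice also drops cells that caught effector transcripts as free RNA, so it gives no measure of that background. A Cd38 UMI was found in these resting cells after thinning in 1 of 1176 and 0 of 953 control cells, and in 0 of 169 and 3 of 200 knockdown cells. The upper exact 95% limits were 0.473, 0.386, 2.16 and 4.32%. Without thinning these shares were 0.34 and 0.314% in the control libraries, at median depths of 7825.5 and 8380.5 UMIs, and 0 and 2.49% (5 of 201 cells) in the knockdown libraries, at 7150 and 7447 UMIs. Among all Cd4 cells they were 5.04 and 6.61% against 30.7 and 32.1%, at median depths of 6960 to 8092 UMIs.

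The mitochondrial share moved with the members and with the groups. Of Cd4 cells with up to 2.5% mitochondrial UMIs, 52.2 and 60.9% were double-positive under the control hairpin, against 94.3 and 92.4% under the knockdown. Between 2.5 and 5% these were 6.34 and 6.12% against 43.3 and 43.0%, and between 5 and 10%, among cells left out above, 19.3 and 20.0% against 34.8 and 32.1%. Double-positive Cd8 cells were likewise more frequent in the knockdown libraries in each range, but in Foxp3 cells the direction turned between ranges. Up to 2.5% they were 82.5 and 69.4% of control and 60.0 and 51.9% of knockdown cells, between 2.5 and 5%, which held most kept Foxp3 cells, 26.8 and 33.0% against 39.8 and 45.1%, and between 5 and 10% 43.8 and 44.9% against 26.6 and 27.8%. In the cells up to 2.5%, the Cd38 and Entpd1 RNA differences of Cd4 and Cd8 cells were 0.63 to 0.92, still called but far below those of all kept cells, and the calls of Foxp3 cells were lost. The tag differences of Cd4 cells then fell to 0.17 for both tags (adjusted p = 0.336 and 0.251), and those of Cd8 cells to -0.02 and -0.04 (adjusted p = 0.618 and 0.573). The part of the mitochondrial share in the differences was not tested.

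The wider pathway was taken from a list of 38 genes of extracellular purine handling, 37 of which are in the files. Genes of the list beyond the members are given with the main settings alone. Without the 5 members, 12 were tested in Cd4 cells, of which 3 were higher and 5 lower, beside 22 and 21.3% of all genes. In Cd8 cells 13 were tested, with 2 higher and 5 lower, beside 22.6 and 21.8%, and in Foxp3 cells 10, with 1 higher and 0 lower, beside 4.63 and 4.1%. Over the whole list the median log2 difference was 0.02 in Cd4, -0.07 in Cd8 and -0.10 in Foxp3 cells, beside medians over all genes within 0.01 of 0.

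Receptors for adenosine and ATP moved in both directions. Adora3, another adenosine receptor gene, was at 0.885 and 0.981 CPM in control and 6.81 and 9.42 CPM in knockdown Cd4 cells. The log2 difference of 3.03 (adjusted p = 1.85e-07) rested on 14 and 13 UMIs in control and 44 and 79 in knockdown libraries. In Cd8 cells Adora3 rose by 2.08 (adjusted p = 1.07e-07). P2rx4, another ATP-gated channel, fell by 0.79 on the log2 scale in Cd4 cells and by 0.67 in Cd8 cells. P2ry14, a receptor for UDP sugars, was called in Cd8 cells alone (log2 difference 1.42, adjusted p = 0.00567), and its difference between the classes was not called (adjusted p = 0.542).

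Of the genes listed for adenosine handling, some were called lower in Cd4 and Cd8 cells and others were not called. Ada, adenosine deaminase, fell by 1.03 and by 0.67 on the log2 scale. In Cd8 cells Ada was at 5.51 and 5.05 CPM in control against 2.04 and 4.64 CPM in knockdown libraries (17 and 55 UMIs). Knockdown library 2 was thus close to the control there. Adk, adenosine kinase, fell by 0.76 and by 0.67. Dpp4, the surface protein CD26 that anchors adenosine deaminase in humans, fell by 0.72 and by 0.57, and Slc29a1, a nucleoside transporter, fell by 0.53 in Cd4 cells and was not called in Cd8 cells (log2 difference -0.31, adjusted p = 0.0566). Slc28a2, another nucleoside transporter, was at log2 differences of 0.02 and 0.16 in Cd4 and Cd8 cells, and Pnp, a purine nucleoside phosphorylase, at 0.02 and 0.08, and neither was called. In Foxp3 cells Pnp was the called gene (log2 difference 0.50, adjusted p = 0.0201). Adk differed between Foxp3 and Cd4 cells in its response by 0.79 (adjusted p = 0.0353): in Foxp3 cells it was at 22.3 and 23.5 CPM in control and 24.8 and 21.7 CPM in knockdown libraries.

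Among the enzymes, Enpp1, which cleaves ATP to AMP, rose by 0.65 in Cd4 cells (adjusted p = 0.0197). Art2b, which attaches ADP-ribose from NAD to surface proteins, was higher in knockdown Cd4 cells by 0.52 and lower in Cd8 cells by 0.28 (log2 difference -0.28). The difference between these classes was called at -0.80 (adjusted p = 3.92e-05).

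Tags of the pathway gave a partly different picture from the RNA. The CD73 tag fell in Cd4 cells from 4028 and 4379 to 2571 and 2766 CPM (log2 difference -0.91, adjusted p = 0.00433), where Nt5e RNA had an interval that included 0. In Cd8 cells it fell by 1.27 on the log2 scale, and in Foxp3 cells it was not called (log2 difference -0.34, interval -0.67 to -0.01, adjusted p = 0.089), while the plain CPM of the groups overlapped, at 10080 and 11680 against 11450 and 10250. The CD26 tag fell by 1.26, by 1.36 and by 0.79 in Cd4, Cd8 and Foxp3 cells, in the same direction under all 3 scalings of the test and in plain CPM. The P2X7R tag fell by 0.38 in Cd4 and by 0.78 in Foxp3 cells. In plain CPM this tag fell less in Cd4 cells, from 3100 and 3051 to 2883 and 2737 CPM. In Cd8 cells its log2 difference was -0.11 after rescaling but 0.30 in plain CPM, so its direction there depends on the scaling. The CD157 tag was not called in any class, and the ENPP1 tag was called in Cd4 cells alone (0.17), a call lost when scaled to the isotype controls (adjusted p = 0.299). In plain CPM both tags were higher in the knockdown libraries of every class, so their reading depends on the scaling. The isotype controls likewise took 0.288 and 0.295% of tag UMIs in control against 0.393 and 0.402% in knockdown libraries. The CD157 tag averaged 0.816 to 1.18 counts per kept cell. The ENPP1 tag was at 13500 to 14200 CPM in droplets without a cell, against 5130 to 6080 CPM in called cells. The part of background in these rises was not tested. In Foxp3 cells, for example, the ENPP1 tag was at 5480 and 4847 against 6406 and 6521 CPM.

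The features whose levels most resembled the members were ranked over the 12 sums of class and library. Among 4648 genes, Prkch (Pearson's r 0.993), Pdcd1 (0.985), Sh2d2a (0.983) and Cnot3 (0.982) were 4 of the 5 most like Cd38. For Entpd1 these were Acot7 (0.989), Grina (0.988), Anxa2 (0.987), Osbpl3 (0.984) and Elk3 (0.984), and the 2 lists share no gene. The member genes were left out of this RNA ranking, so Cd38 and Entpd1 could not appear on each other's lists. Ribosomal, mitochondrial and T cell receptor genes were left out as well. Among 196 tags, CXCR6 (0.963), CD39 (0.923), CD49d (0.922), ENPP1 (0.876) and CD115 (0.854) were most like CD38. No lower limit on the level was set for tags. CD115 had 2063 and 1424 UMIs in the 1986 and 1573 control Cd4 cells, so it may hold background alone, which was not tested. For CD39 they were Tim-3 (0.925), CD38 (0.923), PD-1 (0.92), ENPP1 (0.918) and CD200R (0.895). The sums share libraries and the groups, so r follows the contrast of the groups as well as that of the classes. As an example, the PD-1 tag was at 3089 and 3334 CPM in control and 7114 and 7329 CPM in knockdown Cd4 cells, and at 5180 and 5777 against 7805 and 8316 CPM in Foxp3 cells.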

How the data were processed

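CD3-sorted T cells of 2 control and 2 knockdown libraries were measured by CITE-seq. The authors deposited counts of UMIs per gene or tag and cell barcode, made with Cell Ranger on mm10. The file headers name version 6.1.1 in the filtered and version 4 in the raw files, and barcodes with 10 to 100 UMIs of the latter served as empty droplets. Cells with 200 to 3000 genes and at most 5% mitochondrial UMIs were kept, and doublets were removed by simulation (30 principal components of 2000 genes, 2 simulated doublets per cell), 13.4 to 16.6% of cells in a library. Foxp3 cells had at least 1 Foxp3 UMI and at most 2 UMIs of Cd8a and Cd8b1, Cd8 cells at least 3 of these and none of Cd4 or Foxp3, and Cd4 cells at least 1 UMI of Cd4, at most 2 of Cd8a and Cd8b1 and none of Foxp3. Cells without a class were 19.6 to 23.1%. They entered the tag thresholds and the values over all kept cells, but no comparison of a class. The unnamed tag was left out, and no column of other samples was present.

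Counts were summed per class and library and tested with edgeR 4.0.16 (TMM, quasi-likelihood, Benjamini-Hochberg adjustment over all genes or all tags, threshold 0.05), with a library term for contrasts of classes. DESeq2 1.42.0 was an alternative, and the others are listed with their effect in the closing part. R 4.3.3, Python 3.11.15, scipy 1.17.1 and scikit-image 0.26.0 were used. The fits were tested on simulated data. Shares of cells were compared by exact permutation over libraries, with exact Clopper-Pearson intervals at 95%. The isotype threshold hardly separated CD39, so the description by tag combination uses Otsu's threshold, a use chosen after the data were seen. Markers of cell type and state, the TIGIT tag and Slc28a2, which was not called, are named outside any rule. Other genes named beyond the members were taken by a rule. The rule took called genes of the purine list, and the 5 features most like each of Cd38, Entpd1 and the 2 tags. Genes ranked for likeness had at least 20 CPM. A gene that this rule names is not reported here. The members and lists were chosen with earlier results of these data known. Libraries with the same number were not linked by the labels.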

Additional observations from a re-analysis of the deposited data

Results flagged for a closer look

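The knockdown effect differed between Foxp3 and Cd4 cells for Cd38, Entpd1 and both tags, by a test of the interaction over the sums of class and library. The interaction was -1.57 for Cd38, -1.80 for Entpd1, -1.46 for the CD38 tag and -1.50 for the CD39 tag on the log2 scale. With cells up to 2.5% mitochondrial UMIs those of Cd38, Entpd1 and the CD38 tag were no longer called.

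Barcodes with 10 to 100 RNA UMIs, which hold free RNA and tags in place of a cell, held higher CPM of Cd38, Entpd1 and both tags in the knockdown libraries. Cd38 was at 35.1 and 35.6 CPM there, against 9.86 and 9.66 CPM in the control libraries, and Entpd1 at 32.2 and 24.3 CPM against 8.59 and 11.5 CPM. The CD38 tag was at 4150 and 4760 CPM against 3220 and 3030 CPM, and the CD39 tag at 11400 and 11500 CPM against 10200 and 10100 CPM. The Cd38 and Entpd1 values rest on 28 to 49 UMIs per library. Nt5e (17.2 and 20.8 against 24.0 and 17.7 CPM), P2rx7 (5.73 and 1.74 against 7.58 and 5.65 CPM) and Adora2a (14.3 and 10.4 against 13.1 and 11.8 CPM) overlapped between the groups. Per barcode the tags ran the other way, with means of 1.35 and 0.522 counts of CD38 against 2.37 and 2.05, and 3.70 and 1.27 counts of CD39 against 7.47 and 6.86. No p was computed for these values.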

How the results depend on the processing

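Of 571 alternative values of the members, 493 kept their direction and their side of the threshold, and 35 changed direction. Of these 35, 2 were called in the main fit, and 32 were called neither there nor in the alternative. Cells with up to 2.5% mitochondrial UMIs, 1 of the alternatives chosen after the data were seen, lost most calls and hold fewer cells and fewer testable genes. Of 23 called comparisons, 9 kept their call under every alternative, and 17 did so with that alternative left aside. Precision is limited by 2 libraries a group and by 6 to 61 UMIs per library for P2rx7. The causes of the changes below were not tested. Values are log2 differences, knockdown against control, unless classes are named.

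With cells up to 2.5% mitochondrial UMIs, RNA gave 0.92 and 0.63 for Cd38 and Entpd1 in Cd4 cells and 0.81 and 0.89 in Cd8 cells, still called, and 0.74 for Adora2a in Cd4 cells, -0.53 for Nt5e in Cd8 cells, and 0.44, 0.35 and 0.32 for Cd38, Entpd1 and Nt5e in Foxp3 cells. Tags gave 0.17 for both in Cd4 cells, -0.023 for CD38 and -0.037 for CD39 in Cd8 cells, and -0.14 and -0.29 in Foxp3 cells. Between Cd8 and Cd4 cells it gave -0.41 for Cd38, -0.87 for Nt5e and -0.54 for the CD39 tag. Between Foxp3 and Cd4 cells it gave -1.34 for Cd38, -0.55 for Entpd1, 0.49 for Adora2a, and -1.81 and -0.98 for the CD38 and CD39 tags. The knockdown effect differed by 0.59 for Nt5e between Cd8 and Cd4 cells, and by -0.50 for Cd38, -0.30 for Entpd1 and -0.38 for the CD38 tag between Foxp3 and Cd4 cells.

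DESeq2 gave -1.21 for P2rx7 in Cd4 cells (adjusted p = 0.0503), -0.43 for Nt5e in Cd8 cells, 0.56 for Entpd1, 0.37 for Nt5e and -0.01495 for the CD39 tag in Foxp3 cells, and -0.28 for the effect on the CD39 tag between Cd8 and Cd4 cells. Without the low-count filter Entpd1 and Nt5e in Foxp3 cells were at 0.55 and 0.36, Adora2a at -0.36 between Cd8 and Cd4 cells and Cd38 at -0.52 between Foxp3 and Cd4 cells. Looser cell limits gave 0.0144 for P2rx7 in Cd8 cells, 0.38 for Nt5e and -0.0858 for the CD39 tag in Foxp3 cells, and 0.0225 for the CD39 tag between Foxp3 and Cd4 cells. Without doublet removal P2rx7 in Cd8 cells was at 0.16, Nt5e between Cd8 and Cd4 cells at -0.0316, the CD39 tag in Foxp3 cells at -0.0063, and the effects between Foxp3 and Cd4 cells at 0.60 for Nt5e and -0.77 for Adora2a. The stricter lineage call gave 0.58, 0.48 and 0.57 for Cd38, Nt5e and P2rx7, -0.19 and -0.30 for the CD38 and CD39 tags in Foxp3 cells, 0.13 for the CD39 tag between Foxp3 and Cd4 cells and -0.0728 for the effect on Entpd1 between Cd8 and Cd4 cells. Isotype scaling gave -0.0108 and -0.18 for the tags in Foxp3 cells and 0.0095 for the CD39 tag between Foxp3 and Cd4 cells. Leaving out cells with myeloid or B cell UMIs gave an effect of -0.0565 on Entpd1 between Cd8 and Cd4 cells, one of 0.70 on Nt5e between Foxp3 and Cd4 cells, and 0.0026 for the CD38 tag between Cd8 and Cd4 cells.

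The difference in double-positive share, 35.2, 23.1 and 5.85 percentage points in Cd4, Cd8 and Foxp3 cells at the isotype threshold, was 38.9, 46.1 and -0.0155 with Otsu's threshold per library, 40.8, 48.0 and 11.1 with 1 such threshold, 40.5, 27.0 and 7.39 with 1 isotype threshold, 38.3, 30.9 and 4.10 with looser limits and 19.3, 13.5 and 1.93 with the 2.5% limit. It was 33.9 in Cd4 and 4.85 in Foxp3 cells without doublet removal and 3.96 in Foxp3 cells with the stricter call. The RNA and protein differences were 73.5 and 72.5 points with Otsu's threshold.

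Leaving out 1 library at a time gave -0.69 to -0.23 for Nt5e and -0.59 to 0.26 for P2rx7 in Cd8 cells. In Foxp3 cells the ranges were 0.43 to 0.71 for Entpd1, 0.30 to 0.45 for Nt5e, and -0.0837 to 0.0825 for the CD39 tag. Between Cd8 and Cd4 cells they were -0.0115 to 0.11 for Nt5e, -0.46 to -0.31 for Adora2a and -0.0861 to 0.0269 for the CD38 tag, and between Foxp3 and Cd4 cells -0.72 to -0.17 for Cd38, 0.58 to 0.90 for Adora2a and -0.31 to 0.23 for the CD39 tag. The effects between Cd8 and Cd4 cells ran from -0.11 to 0.17 for Entpd1 and from -0.0139 to 0.35 for Adora2a. Ranges for the share were 34.3 to 36.1, 22.5 to 23.8 and 5.3 to 6.45 points.

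In Foxp3 cells edgeR tested 8977 genes, while DESeq2 gave adjusted p-values for 3060, so their counts of calls have different totals. Called genes were 4944 in Cd4 cells, 5180 in Cd8 cells and 784 in Foxp3 cells, against 2858, 3037 and 245 by DESeq2 and 1054, 1521 and 110 with the 2.5% limit. In Foxp3 cells they were 372 without the filter, 478 with looser limits, 269 with the stricter call and 460 without control library 1. Between Foxp3 and Cd4 cells 56 tags were called by edgeR and 100 by DESeq2, and 40 tags differed in effect, against 12 and 11 without knockdown library 1 or 2. The replicate block called 5128, 4972 and 799 genes and left each of the 21 member comparisons it could test, called or not, on its side of the threshold, with deviations of libraries of like number correlated at -0.15 to 0.0024, so the numbers do not pair the libraries. The crossed pairing called 5106, 5404 and 885 genes.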
